A study of Mus musculus with 6 samples.

Results

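Of the 17144 genes measured on the arrays, 93 were both linked to a SOX2-occupied promoter in embryonic stem cells (ESCs) and among the genes that rose most in neural precursor cells (NPCs). SOX2 is a transcription factor that both cell types express. The 93 genes were selected in 2 steps. Their symbols had to be in the study's sheet of promoters bound by SOX2 in ESCs, as mapped by ChIP-seq. Their array values had to be among the rows read from the study's expression sheet. Those rows are the 1999 genes with the largest NPC minus ESC difference. Whether the full sheet holds further genes below them was not determined. Genes whose symbols begin with 1 of 12 prefixes (such as those of solute carriers, potassium channels, guidance receptors, SOX, Notch and Hox genes) were set aside, which removed 4 of 97. The members were thus selected on the NPC minus ESC difference of these same arrays, and every rise of a member is given here as a description, without a test. The rows read held 97 of the 930 bound symbols, beside 1999 of all 17144 genes, and nothing is concluded from the number of members. Bound genes that fell or did not change in NPCs have no name in those rows, which supplied nearly all names. Only 10.6% of the bound symbols could therefore be found on the arrays, so nothing here describes bound promoters as a whole.

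The series holds 6 Affymetrix mouse expression arrays, 3 of wild type ESCs and 3 of wild type NPCs. The ESCs were the blastocyst-derived line V6.5, of 129SvJae/C57B6 F1 background, kept undifferentiated in serum with LIF. The NPCs were made in culture from the same V6.5 line and grown in N3 medium on laminin with the growth factors bFGF and EGF, so both groups represent 1 line and NPCs that formed in a dish. Total RNA was extracted with Trizol, and 1 array was hybridized for each biological replicate. The labels do not say whether replicates came from separate cultures or differentiations, so the spread between arrays may be partly technical. Values are robust multi-array averages on the log2 scale, in which a difference of 1 is a 2-fold difference. In bulk RNA of this kind, fewer cells that express a gene and less RNA per cell cannot be told apart.

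SOX2 belongs to a family of factors that bind short AT-rich sites in the minor groove of DNA, usually next to a partner. In ESCs the best known partner is OCT4, the product of Pou5f1, and in neural precursors it is often a POU factor of the BRN type. A promoter that SOX2 occupies in ESCs need not be active there. Many genes of neural precursors have CpG-rich promoters that are held silent in pluripotent cells until differentiation.

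Pou5f1 had a mean of 12.44 ± 0.02 in ESCs and 3.70 ± 0.11 in NPCs (SD, n = 3 each). Fabp7, a fatty acid binding protein of radial glia, had 3.78 ± 0.06 and 13.05 ± 0.42 in the same order. The neural precursor markers Fabp7, Nes, Olig2 and Vim were called higher in NPCs, but none of the 6 fibroblast or the 7 mesoderm and endoderm markers was named, so the absence of those cells could not be read. Named markers of differentiated neural cells were also called higher in NPCs, the neuronal Syt1 (3.70 ± 0.12 to 6.28 ± 1.20) and Dcx (3.49 ± 0.18 to 4.56 ± 0.70), the astrocytic S100b (3.98 ± 0.03 to 6.49 ± 0.47) and the oligodendrocytic Cnp (6.28 ± 0.08 to 7.16 ± 0.12), each as mean and SD of 3 arrays. Their part in the members' differences was not tested. The neural markers given here have a name only because they are among the rising genes, so these calls follow from the naming. Markers of the same lists that fell or did not change would have no name here. NPC replicate 3 stood apart. It correlated with NPC replicates 1 and 2 at r = 0.978 and 0.979 across genes, against 0.997 between those 2 arrays and between 0.996 and 0.998 among ESC arrays. The sample titles number NPC replicates 1 and 2 consecutively and replicate 3 far from them. What those numbers stand for is not stated.

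All 93 members passed the call used for the whole table (limma, Benjamini-Hochberg adjusted p under 0.05 and over 1.5-fold higher in NPCs), against 15.4% of all genes, and in all 93 the lowest NPC array lay above the highest ESC array, against 26.1% of all genes. Both counts are set largely by the selection, and nothing is read from them. The differences had a median of 1.5 on the log2 scale, with quartiles at 1.10 and 2.39 and a range from 0.84 to 6.96. The 1906 other genes of the expression sheet, which share the selection on the rise but not the bound promoter, or were set aside by prefix, had a median difference of 1.47 and quartiles at 1.09 and 2.18. The middle of the members' distribution therefore lay where that of the other rising genes lay.

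At the upper end, 10 of the 93 members (10.8%) had a difference over 16-fold, against 77 of the 1906 other rising genes (4.04%). Without NPC replicate 3 these counts were 9 (9.68%) and 89 (4.67%). Over 4-fold, the shares were 31 of 93 (33.3%) and 565 of 1906 (29.6%), and without that array 37.6% and 32.6%. Over 2-fold they were 80 of 93 (86.0%) and 1567 of 1906 (82.2%). This last order turned without NPC replicate 3, to 80.6% and 83.5%, and after median centring of the arrays, to 97.8% and 98.2%. The gap over 16-fold rested on 10 genes. It was not tested, since the selection used these values.

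**Figure D1:**
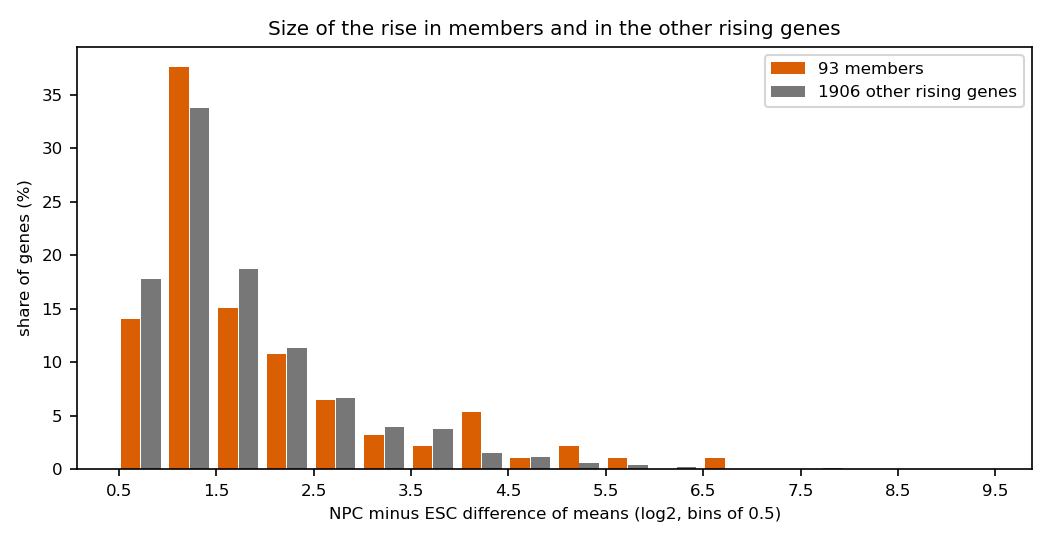
Share of genes (%) against the NPC minus ESC difference of means (log2, bins of 0.5) for the 93 members and the 1906 other rising genes. Both distributions peak between 1.0 and 1.5, with 37.6% of the members in that bin, and the members have 10 genes beyond 4.

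The lower edge was set by where the rows read from the sheet end, and not by a threshold that the study states. The members nearest to it were Hexim1 (0.837), an inhibitor of the elongation factor P-TEFb, Cdh6 (0.839), a cadherin, and the little described 5730577I03Rik (0.848). The lowest gene read had a difference of 0.834, and the next 2 genes outside those rows, which have no name here, had 0.834 each.

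Members also differed in where they lay on the arrays. Ranked among all genes of the same cell type, 49 of the 93 members (52.7%) were above the median gene in ESCs and 86 (92.5%) were above it in NPCs. The other rising genes had 50.6% and 88.9%. Of the members, 6 (6.45%) went from the lowest 25% of genes in ESCs to the highest 25% in NPCs, namely Astn1, Itgb8, Pkia, Ptprz1, Rfx4 and Timp4. Of the other rising genes, 40 of 1906 (2.10%) made that step. At the other end, 7 members were below the median gene in both cell types: 5730577I03Rik, Etv1, Prox1, Rnase1, Rnf182, Stk39 and Tmem100. Probe sets differ in brightness for the same amount of RNA, so these ranks place a gene among probe sets and do not measure molecules. No detection calls were used, so whether a low ESC value was above background was not determined. This concerns most the 13 members in the lowest 25% of genes in ESCs, which is a rank limit and not a background level. Their differences are differences of array values and may be smaller than the change in RNA.

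**Figure D2:**
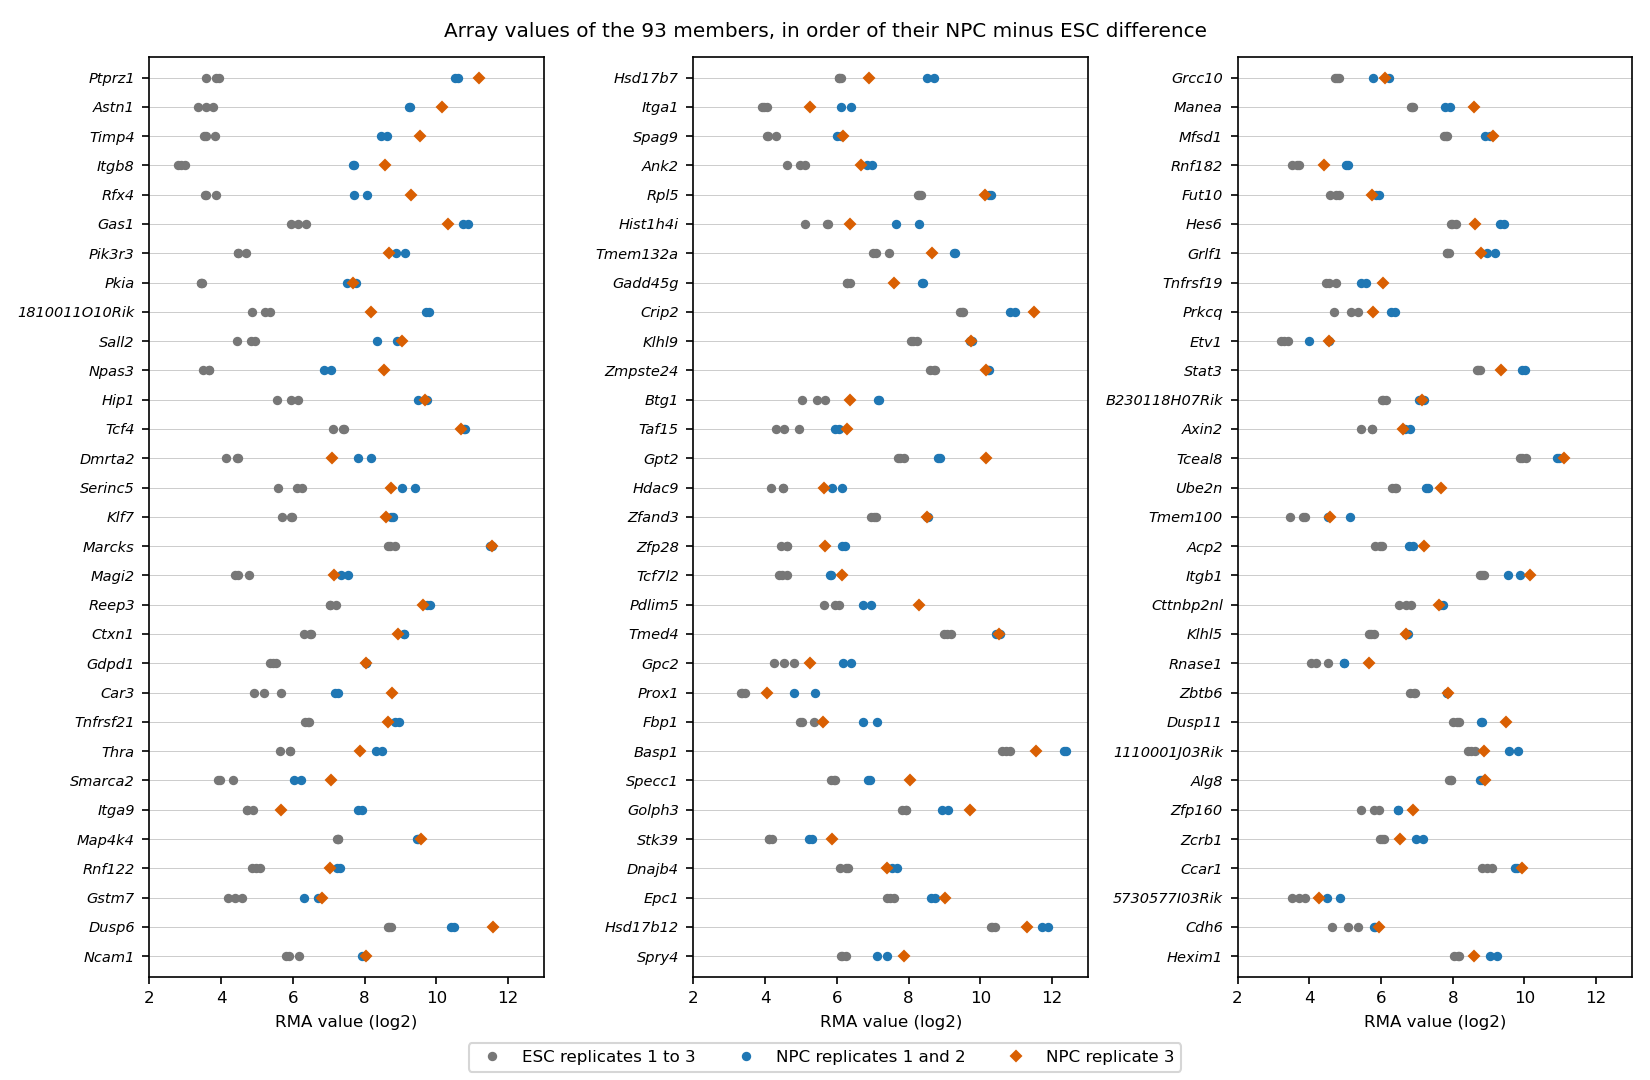
RMA value (log2) of every member on each of the 6 arrays, 1 row a gene, in order of the NPC minus ESC difference from the top left (Ptprz1, 6.96) to the bottom right (Hexim1, 0.84). Grey points are ESC replicates 1 to 3, blue points are NPC replicates 1 and 2, and orange diamonds are NPC replicate 3, which is the highest NPC array in 38 members and the lowest in 44.

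The members were grouped into 7 roles. Genes of adhesion and matrix had the largest median difference, at 2.21 over 10 genes, with 6 of them over 4-fold. Signalling genes followed with 1.80 over 15 genes, then genes of the cytoskeleton, membrane and scaffolds with 1.78 over 12 and transcription factors with 1.45 over 15. The 12 genes of chromatin, transcription and RNA and the 22 genes of metabolism, secretion and protein turnover each had a median of 1.4, and the 7 other or little described genes had 1.06. Within each role the range was wider than the gap between the medians. Among transcription factors, for example, it ran from 0.88 to 4.70.

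**Figure D3:**
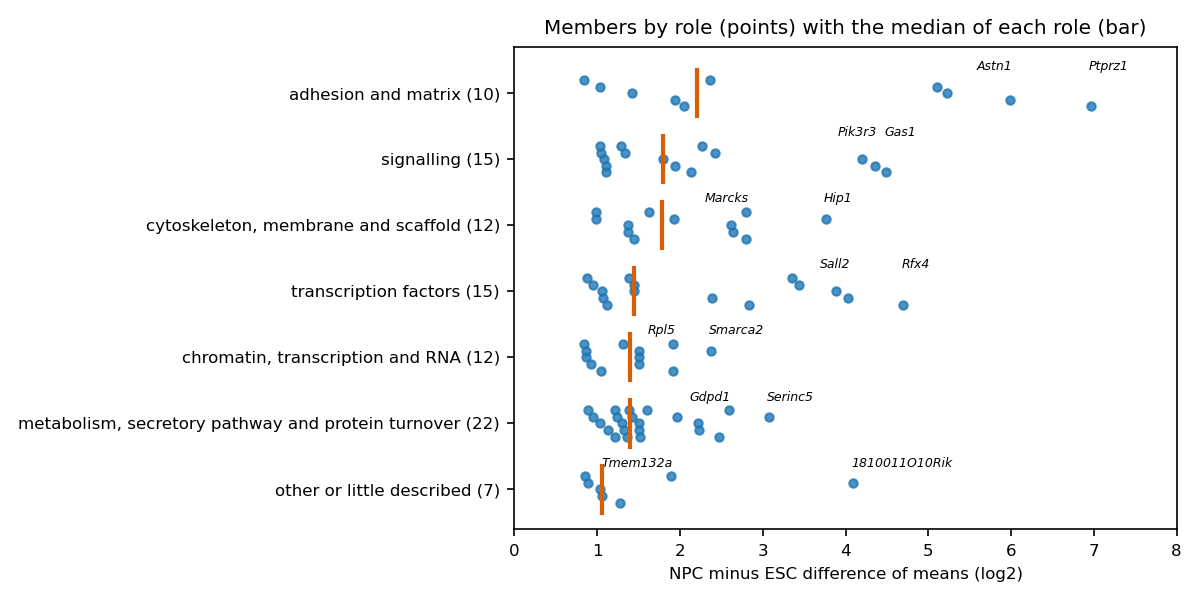
NPC minus ESC difference of means (log2) of each member (points), by role, with the number of members in parentheses, the 2 largest differences of each role named and the median of each role as a bar. The 4 points beyond 5 are all genes of adhesion and matrix.

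Adhesion and matrix genes held the 4 largest differences of the whole group. Ptprz1 (ENSMUSG00000068748), a receptor tyrosine phosphatase of neural precursors and glia, read 3.95, 3.59 and 3.87 on the ESC arrays and 10.60, 10.51 and 11.19 on the NPC arrays, a difference of 6.96. Astn1 (ENSMUSG00000026587), which serves the adhesion of migrating neurons to glial fibres, read 3.77, 3.57 and 3.36 in ESCs and 9.27, 9.24 and 10.17 in NPCs, a difference of 5.99. Timp4, an inhibitor of matrix metalloproteinases, read 3.82, 3.58 and 3.53 in ESCs and 8.45, 8.63 and 9.55 in NPCs, a difference of 5.23. In all 3 genes the cell types were separated by more than 4 units, and NPC replicate 3 was the highest array.

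The promoters of these 3 genes, which had the largest rises, are shown. The Ptprz1 window differs widely in CpG content from those of Astn1 and Timp4, which are alike in it. Each run is the RefSeq window from 250 bases before to 50 bases after the annotated start (GRCm38.p6), written 5′ to 3′ on the strand of the gene, with CpG dinucleotides in capitals. The Ptprz1 window (chr6:22875252-22875551, plus strand) holds 29 CpG and 71.7% G and C, the Astn1 window (chr1:158362054-158362353, plus strand) holds 2 CpG and 50.7% G and C, and the Timp4 window (chr6:115252156-115252455, minus strand) holds 2 CpG and 53.3% G and C.
Ptprz1: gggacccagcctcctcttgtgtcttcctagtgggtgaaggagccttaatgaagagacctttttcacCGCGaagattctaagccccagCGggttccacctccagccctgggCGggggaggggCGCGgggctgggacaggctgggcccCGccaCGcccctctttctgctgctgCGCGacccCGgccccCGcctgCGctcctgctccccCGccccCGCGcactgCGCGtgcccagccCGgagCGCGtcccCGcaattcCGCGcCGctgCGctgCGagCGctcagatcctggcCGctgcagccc
Astn1: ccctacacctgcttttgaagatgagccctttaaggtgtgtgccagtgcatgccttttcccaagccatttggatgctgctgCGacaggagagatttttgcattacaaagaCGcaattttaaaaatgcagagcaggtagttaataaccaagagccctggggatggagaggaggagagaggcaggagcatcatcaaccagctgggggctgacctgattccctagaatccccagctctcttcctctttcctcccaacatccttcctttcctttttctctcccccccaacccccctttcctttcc
Timp4: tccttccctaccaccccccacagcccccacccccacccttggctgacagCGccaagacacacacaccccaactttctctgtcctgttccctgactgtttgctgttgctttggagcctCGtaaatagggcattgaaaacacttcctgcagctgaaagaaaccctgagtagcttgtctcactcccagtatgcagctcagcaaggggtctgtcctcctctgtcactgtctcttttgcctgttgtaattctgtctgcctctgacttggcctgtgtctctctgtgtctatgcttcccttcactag

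Integrins, the heterodimeric receptors for extracellular matrix, supplied 4 members. Itgb8 (ENSMUSG00000025321), a subunit that pairs with the alpha v chain, read 2.79, 2.98 and 2.87 in ESCs and 7.70, 7.67 and 8.56 in NPCs, a difference of 5.10. Itgb1, the common beta 1 chain, read 8.76, 8.88 and 8.82 in ESCs and 9.53, 9.87 and 10.16 in NPCs, a difference of 1.03. These 2 beta chains separated the cell types by very different amounts, and both were highest in NPC replicate 3. The 2 alpha chains went the other way on that array. Itga9 read 4.73, 4.73 and 4.88 in ESCs against 7.83, 7.93 and 5.67 in NPCs, and Itga1 read 3.91, 4.04 and 3.96 against 6.11, 6.38 and 5.24. The cell types did not overlap in either alpha chain, but for Itga9 the nearest arrays were only 0.79 apart because of replicate 3. Of the 26 integrin subunits in the mouse list, 6 could be named, all among the rising genes because the rows read from the sheet hold only those. Beside the 4 members these were Itgav, with a difference of 1.01, and Itga8, which read 8.01, 8.22 and 4.24 in NPCs.

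The remaining members of this role had smaller differences. Ncam1, the neural cell adhesion molecule, read 5.88, 5.81 and 6.16 in ESCs and 7.94, 8.0 and 8.05 in NPCs, a difference of 2.05 or 4.14-fold. Its NPC arrays agreed to within an SD of 0.05 (n = 3), and the groups did not overlap. Gpc2, a heparan sulphate proteoglycan of the developing nervous system, had a difference of 1.42 and a gap of 0.44 between the nearest arrays of the 2 cell types. Cdh6 lay at the lower edge of the selection, as given above.

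Transcription factors made up 15 members, 7 of them over 4-fold. Rfx4 (ENSMUSG00000020037), a winged helix factor needed for patterning of the dorsal forebrain, read 3.55, 3.57 and 3.85 in ESCs and 8.08, 7.70 and 9.29 in NPCs, a difference of 4.70. Sall2, a zinc finger factor, read 4.82, 4.95 and 4.44 in ESCs and 8.90, 8.36 and 9.04 in NPCs, a difference of 4.03. Npas3, a basic helix-loop-helix factor of the PAS class, read 3.67, 3.67 and 3.49 in ESCs and 6.87, 7.07 and 8.53 in NPCs, a difference of 3.88. The cell types were far apart in all 3 genes, but the NPC arrays of Rfx4 and Npas3 spread widely, with SDs of 0.83 and 0.91 (n = 3), and replicate 3 was the high one in both.

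Tcf4 and Klf7 showed the opposite precision. Tcf4, an E protein that pairs with proneural factors, read 7.42, 7.39 and 7.12 in ESCs and 10.81, 10.76 and 10.70 in NPCs, a difference of 3.44 with an SD of 0.06 in NPCs (n = 3). Tcf12, the second named E protein, is no member and had the same difference of 3.44. Klf7, a factor of neuronal growth, had a difference of 2.83. Dmrta2, which acts in cortical progenitors, had 3.35, and Thra, a thyroid hormone receptor, had 2.39. The other members of this role were below 4-fold. Hes6, an antagonist of HES1, had a difference of 1.12, Stat3, the effector of LIF signalling, had 1.06, and Prox1, a homeobox factor of differentiating neurons, had 1.38. Zfp28, Zbtb6 and Zfp160 are zinc finger genes with differences of 1.45, 0.95 and 0.88.

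Relatives of these factors were partly named. Of the 7 RFX genes 4 were named, among them Rfx2, which fell from 6.95 ± 0.11 to 4.83 ± 0.17 (SD, n = 3), a difference of -2.12. Rfx3 and Rfx7 had differences of 0.69 and 1.49 and are no members. Sall3 had a difference of 4.19, close to that of Sall2, and is no member either. Since names came mainly from the rising genes, the share of a family that rose cannot be read from these counts.

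Signalling members were led by Gas1, Pik3r3 and Pkia. Gas1, a membrane co-receptor for hedgehog ligands, read 5.96, 6.15 and 6.38 in ESCs and 10.74, 10.89 and 10.33 in NPCs, a difference of 4.49 or 22.5-fold. Pik3r3, a regulatory subunit of phosphoinositide 3-kinase, read 4.70, 4.46 and 4.47 in ESCs and 8.89, 9.12 and 8.67 in NPCs, a difference of 4.35. Pkia, a peptide inhibitor of protein kinase A, read 3.46, 3.43 and 3.44 in ESCs and 7.50, 7.75 and 7.69 in NPCs, a difference of 4.20. All 3 had tight NPC arrays, with SDs between 0.13 and 0.29. Replicate 3 lay farthest from the others in Gas1, at -0.48 relative to their mean.

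Feedback genes of the ERK pathway, which growth factors such as bFGF and EGF induce, supplied 3 members. Dusp6, the ERK phosphatase, read 8.67, 8.73 and 8.66 in ESCs and 10.41, 10.48 and 11.57 in NPCs, a difference of 2.13. Spry4, a Sprouty inhibitor of receptor tyrosine kinases, read 6.25, 6.14 and 6.11 in ESCs and 7.12, 7.40 and 7.86 in NPCs, a difference of 1.29. Etv1, an ETS factor downstream of FGF, read 3.20, 3.29 and 3.40 in ESCs and 4.56, 3.99 and 4.56 in NPCs, a difference of 1.07. ESC and NPC arrays did not overlap in these genes, and Etv1 stayed low on the arrays of both cell types. Of the 11 genes of this list 6 were named, the other 3 being Spry1 (2.74), Spred1 (1.16) and Spry2 (0.87). All 6 were called higher, because names came almost only from the rising genes. The share of the list that rose cannot be read from this. The part of the growth factors in these values was not tested. Spry1 had the largest difference of the 6 and is no member.

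WNT feedback genes and TCF factors supplied 3 more, all with modest differences. Tcf7l2, a nuclear effector of beta-catenin, read 4.38, 4.48 and 4.62 in ESCs and 5.84, 5.81 and 6.14 in NPCs, a difference of 1.44. Tnfrsf19, a receptor known as a WNT target, read 4.75, 4.48 and 4.55 in ESCs and 5.58, 5.43 and 6.05 in NPCs, a difference of 1.10. Axin2, a scaffold of the beta-catenin destruction complex, read 5.75, 5.45 and 5.76 in ESCs and 6.68, 6.82 and 6.61 in NPCs, a difference of 1.05. In each the nearest ESC and NPC arrays lay between 0.68 and 1.19 apart. Of the 16 genes in this list 4 were named, again from the rising genes, the fourth being Lgr5 with a difference of 0.92. Other signalling members over 4-fold were the death receptor Tnfrsf21 (2.42) and the kinase Map4k4 (2.26).

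Cytoskeletal, membrane and scaffold genes were led by Hip1. This clathrin adaptor read 5.56, 6.13 and 5.96 in ESCs and 9.48, 9.75 and 9.69 in NPCs, a difference of 3.76. Marcks, a substrate of protein kinase C that links actin to the membrane, read 8.84, 8.71 and 8.64 in ESCs and 11.54, 11.50 and 11.54 in NPCs, a difference of 2.80. Magi2, a synaptic scaffold, read 4.77, 4.39 and 4.47 in ESCs and 7.55, 7.33 and 7.15 in NPCs, also a difference of 2.80. Marcks had an SD of only 0.02 across the NPC arrays. Basp1, which shares with Marcks and Gap43 a place at the membrane of growth cones, was already bright in ESCs, at 10.60, 10.72 and 10.83, and read 12.38, 12.33 and 11.56 in NPCs, a difference of 1.37. Gap43 is no member and had a difference of 4.57.

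Genes of chromatin, transcription and RNA had 1 member over 4-fold. Smarca2, an ATPase of the SWI/SNF remodelling complex, read 3.91, 4.34 and 3.96 in ESCs and 6.02, 6.24 and 7.07 in NPCs, a difference of 2.38. Rpl5, a protein of the large ribosomal subunit, had a difference of 1.92, and Hist1h4i, a histone H4 gene, had 1.91. Both belong to sets with near-identical copies elsewhere in the genome, so their values are uncertain as values of 1 gene. Hdac9 (ENSMUSG00000004698), a class IIa histone deacetylase, read 4.15, 4.51 and 4.49 in ESCs and 5.87, 6.14 and 5.63 in NPCs, a difference of 1.5 or 2.82-fold. Its groups lay 1.12 apart at the nearest arrays. Hdac7, the only other class IIa enzyme named, had a difference of 0.91 and is no member.

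Metabolic, secretory and protein turnover genes were the most numerous role and mostly moved by less than 4-fold, with 5 of 22 above it. Serinc5, a membrane protein with many transmembrane segments, read 6.25, 6.12 and 5.58 in ESCs and 9.42, 9.03 and 8.73 in NPCs, a difference of 3.07. Gdpd1, a phosphodiesterase of lysophospholipids, read 5.45, 5.53 and 5.37 in ESCs and 8.03, 8.05 and 8.04 in NPCs, a difference of 2.59. Car3, a carbonic anhydrase, read 5.66, 5.20 and 4.93 in ESCs and 7.17, 7.25 and 8.77 in NPCs, a difference of 2.47. The 3 genes thus ranged from NPC arrays that coincide (Gdpd1, SD 0.01, n = 3) to ones spread over more than a unit (Car3, SD 0.90, n = 3). Among the little described members, 1810011O10Rik had the largest difference, 4.09, and Tmem132a and Grcc10 had 1.89 and 1.27.

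In 16 of the 93 members NPC replicate 3 lay over 1 unit from the average of NPC replicates 1 and 2, above it in 8 (8.60%) and below it in 8 (8.60%). In the other rising genes the shares were 6.51% higher and 8.55% lower, and over all genes 2.20% and 1.80%. The first and second NPC replicates were never that far apart in a member (0 of 93). The median SD of a member was 0.307 over the NPC arrays and 0.104 over the ESC arrays, against 0.241 and 0.109 in the other rising genes. At the median, replicate 3 was 0.41 away from the average of its fellow arrays, against 0.11 between replicates 1 and 2, and it went in both directions.

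The members higher in replicate 3 were led by Npas3, by 1.56. Car3 followed with 1.55, Pdlim5 with 1.44, Rfx4 with 1.4 and Gpt2 with 1.31. Specc1, Dusp6 and Timp4 completed the 8. Lower in replicate 3 were Itga9 (-2.21), Hsd17b7 (-1.72), Hist1h4i (-1.61), 1810011O10Rik (-1.58) and Fbp1 (-1.30), followed by Gpc2, Prox1 and Itga1. Hsd17b7, an enzyme of cholesterol synthesis, read 8.51, 8.71 and 6.89 in NPCs, where ESCs read between 6.07 and 6.11. Fbp1, the gluconeogenic fructose bisphosphatase, read 7.12, 6.73 and 5.62 in NPCs, the last only 0.26 above the highest ESC array. Pdlim5, a scaffold of actin filaments, read 6.74, 6.94 and 8.28.

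Marker genes moved on the same array. The 2 named of 6 neuron markers were lower there, Syt1 at 6.93 and 7.02 against 4.90 and Dcx at 4.86 and 5.06 against 3.76. Of the neural precursor markers, Fabp7 read 12.87, 12.76 and 13.53 and Olig2 read 11.07, 10.96 and 11.67, while Nes (7.84, 7.57 and 7.64) and Vim (12.57, 12.53 and 12.37) stayed near the other arrays. S100b, the 1 named of 5 astrocyte markers, read 6.32, 6.13 and 7.02, and Cnp, the 1 named of 5 oligodendrocyte markers, read 7.13, 7.29 and 7.06. The part of these markers in the members' values on that array was not tested.

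**Figure D4:**
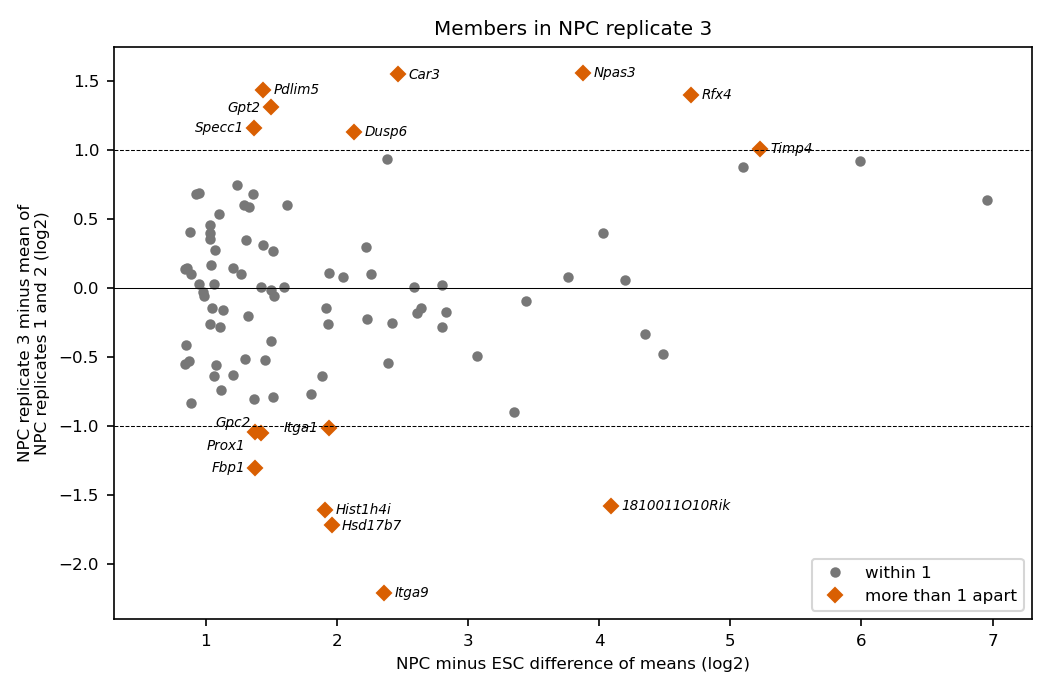
NPC replicate 3 minus the mean of NPC replicates 1 and 2 (log2) against the NPC minus ESC difference of means (log2) for the 93 members. The 16 members more than 1 unit apart (dashed lines) are named, and the 4 with the largest rises lie above 0.5.

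The promoter sequences were described by CpG content, motif letters and neighbouring starts, which the selection on expression did not read. A RefSeq window (GRCm38.p6, 250 bases before to 50 after the start) was found for 77 of the 93 members, some with several starts, 101 windows in all. The reference is the 17491 protein-coding genes of the same table. Of the other rising genes 1452 of 1906 (76.2%) had a window, too few for a check, and their values are given only as a description. CpG dinucleotides, which mark the promoters of widely used and developmental genes, were compared as the observed over the expected number. The median ratio was 0.72 in members and 0.56 in all protein-coding genes, and 54 of 77 members (70.1%) were above 0.6 against 47.1% of all. The other rising genes had a median of 0.74, with 70.5% above 0.6, so the high CpG content was not particular to the members. The G and C content had a median of 59.8% in members, 62.8% in the other rising genes and 56.3% in all. The part that the selection on binding, on the rise and on having a name plays in these shares was not tested.

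Among the members with a window, the CpG ratio was lower where the rise was larger. Of the 31 members with a rise over 4-fold, 21 have a window. These had a median ratio of 0.61, and 11 of them (52.4%) were above 0.6. The 56 with a smaller rise had a median of 0.75, and 43 (76.8%) were above 0.6. In the 8 members over 16-fold that have a window the median was 0.51. Only 2 were above 0.6, Ptprz1 at 0.77 and Pik3r3 at 0.61, and Astn1 at 0.11 and Timp4 at 0.10 are among the lowest of the members. Pkia and 1810011O10Rik, also over 16-fold, have no window. The highest ratios belonged to Hsd17b12 (1.18), Zcrb1 (1.13) and Grlf1 (1.10), all with rises below 4-fold. This is a description over members chosen for their rise. Windows were missing for a larger share of the members over 4-fold than of the others. The other rising genes were not split by rise, so the trend cannot be called particular to the members.

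**Figure D5:**
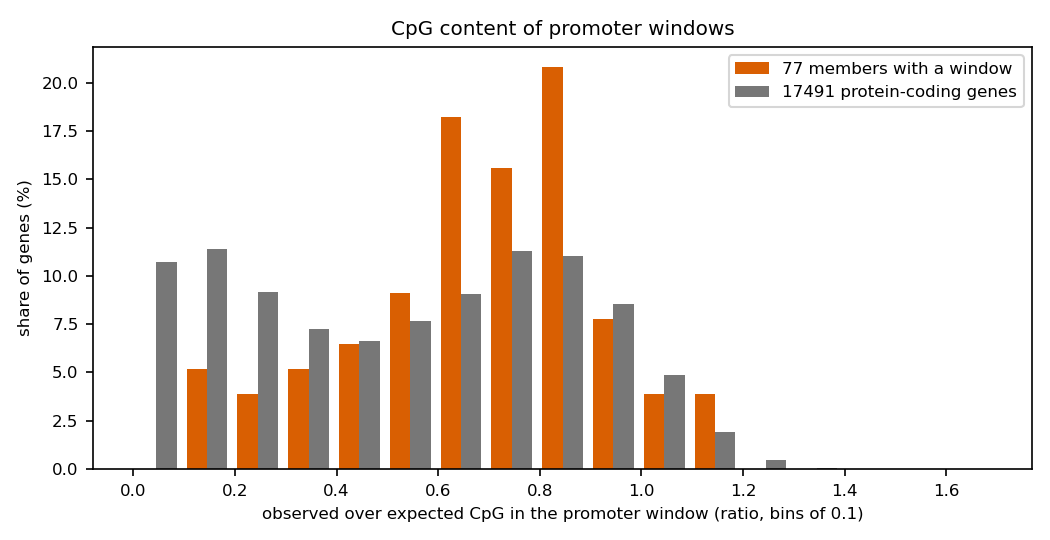
Share of genes (%) against the observed over expected CpG ratio of the promoter window (bins of 0.1) for the 77 members with a window and the 17491 protein-coding genes of the promoter table. No member lies below 0.1, where 10.7% of all genes lie, and the fullest bin of the members, with 20.8%, starts at 0.8.

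Letters like those SOX factors prefer were searched on both strands. CTTTGTT was in the windows of 9 members (11.7%), of 4.82% of the other rising genes with a window and of 5.82% of all protein-coding genes, and counted per window in 8.91% of 101 and 5.01% of 21262. The variant CATTGTT was in 7 members (9.09%), 2.69% of the other rising genes and 3.86% of all, and the octamer ATGCAAAT, the letters of POU factors, in 3 (3.90%), 2.00% and 1.90%. The shorter CTTTGT, which every CTTTGTT contains, was in 22 members (28.6%), 17.4% of the other rising genes and 19.1% of all. All 9 CTTTGTT matches stayed when only the 250 bases before the start were read. The members with CTTTGTT were Gdpd1, Hsd17b7, Crip2, Klhl9, Hdac9, Tcf7l2, B230118H07Rik, Klhl5 and Cdh6. None of them was among the 10 largest rises, of which only 8 had a window to search. Hdac9 and Tcf7l2 also held CATTGTT, and Hdac9 held the octamer as well, as did Gadd45g and Acp2. These are matches of letters in a short window, not occupied sites, and most members had none. The study linked bound regions to a promoter over a wider distance than this window. The positions of those regions were not used here.

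The stretches around CTTTGTT in the 6 of these members with the largest rises are shown to place the match against the start. Each run is 120 bases of GRCm38.p6, 5′ to 3′ on the strand of the gene, with the match in capitals, which read AACAAAG where the motif lies on the other strand. The match starts 18 bases before the annotated start in Gdpd1 (chr11:87074092-87074211, minus strand), 206 before in Hsd17b7 (chr1:169969336-169969455, minus strand) and 65 before in Crip2 (chr12:113140115-113140234, plus strand). It starts 226 bases before in Klhl9 (chr4:88722639-88722758, minus strand), 116 before in Hdac9 (chr12:34917148-34917267, minus strand) and 14 before in Tcf7l2 (chr19:55895251-55895370, plus strand). For Crip2, Hdac9 and Tcf7l2, which have 2 annotated starts each, the start with the match was taken.
Gdpd1: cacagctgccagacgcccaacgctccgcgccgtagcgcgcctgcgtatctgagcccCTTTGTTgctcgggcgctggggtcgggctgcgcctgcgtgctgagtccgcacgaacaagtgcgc
Hsd17b7: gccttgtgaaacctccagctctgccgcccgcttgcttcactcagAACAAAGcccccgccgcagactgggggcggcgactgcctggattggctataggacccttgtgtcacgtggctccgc
Crip2: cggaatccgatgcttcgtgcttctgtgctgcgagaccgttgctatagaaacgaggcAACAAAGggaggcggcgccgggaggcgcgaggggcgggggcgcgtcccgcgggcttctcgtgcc
Klhl9: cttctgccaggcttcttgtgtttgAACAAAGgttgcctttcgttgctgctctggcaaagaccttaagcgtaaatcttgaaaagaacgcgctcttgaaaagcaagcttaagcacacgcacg
Hdac9: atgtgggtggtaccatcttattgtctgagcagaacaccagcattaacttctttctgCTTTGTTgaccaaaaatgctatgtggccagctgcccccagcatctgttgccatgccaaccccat
Tcf7l2: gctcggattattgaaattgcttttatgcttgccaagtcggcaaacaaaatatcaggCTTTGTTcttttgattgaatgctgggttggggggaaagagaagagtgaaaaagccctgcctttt

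The rises of these 6 genes lay between 1.44 (Tcf7l2) and 2.59 (Gdpd1). Crip2, a LIM domain protein, read 9.44, 9.48 and 9.52 in ESCs and 10.83, 10.98 and 11.50 in NPCs, a difference of 1.62. Klhl9, an adaptor of a CUL3 ubiquitin ligase, read 8.22, 8.13 and 8.07 in ESCs and 9.77, 9.70 and 9.75 in NPCs, a difference of 1.60. Hsd17b7 was the 1 of the 6 that replicate 3 set apart, as given above.

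A start of another gene on the opposite strand within 1000 bases was found for 11 of the 77 members (14.3%), for 21.4% of the other rising genes with a window and for 16.2% of all protein-coding genes. The protein-coding neighbours were Stag3 at Gpc2, Fubp1 at Dnajb4 and Pphln1 at Zcrb1, and the other 8 were long non-coding RNA genes. At those starts a bound region near the member may also be near its neighbour, whose values on the arrays have no name here. The positions of bound regions were not compared with the neighbours.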

How the data were processed

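RNA was measured in ESCs and NPCs with 3 arrays each, grouped by the sample descriptions. The log2 values deposited by the authors are robust multi-array averages (RMA), 1 row per Ensembl gene under a BrainCDF probe annotation. Neither its version nor its genome build is given in the sources used here. Of the 17208 rows, 64 control probe sets were left out. No further scaling or filter was applied. Precision is limited by the number of arrays. Names came from the study's tables by matching all 6 array values within 0.0001, which named 2004 genes and left 15140 unnamed. The members and gene lists were chosen with earlier results of these data known.

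The model was fitted to all genes in R 4.3.3 by limma 3.58.1 (functions lmFit and eBayes, without covariates). Calls required a Benjamini-Hochberg adjusted p under 0.05 together with a change over 1.5-fold. The fit was tested on simulated data. The text names the 3 largest differences of each role and the 10 largest in all, members of the family lists, members that stood apart in NPC replicate 3, members that the paper names, and the 3 at the lower edge. Other members named beside them, and non-members, were chosen after their values were seen. Promoter windows came from RefSeq (GRCm38.p6), with 4 symbols updated through synonyms. Alternatives were a moderated Welch test, a replicate block, quantile normalization, median centring, a filter at the 25th percentile, a 2-fold threshold and leaving out each array. Same-numbered arrays did not deviate together (r between -0.00645 and 0.0264), so no effect shared by replicate number was seen. With 3 arrays each this cannot exclude a pairing, and the main fit used none. The values of 1 marker gene are not reported here. Counts over all bound promoter genes were not run, since 10.6% of them could be named, and promoter values of the other rising genes are a description only, since 76.2% had a window. Tables were made with pandas 2.3.3 under Python 3.11.15 and figures with matplotlib 3.10.9.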

Additional observations from a re-analysis of the deposited data

How the results depend on the processing

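All 93 members stayed called with the moderated Welch test, with the replicate block (93), after quantile normalization, after median centring and without NPC replicate 3. Between 91 and 93 were called when each array was left out, and those lost were 1110001J03Rik and Fbp1 (without ESC replicate 1, ESC replicate 2 or NPC replicate 2), and Hist1h4i and Pdlim5 (without ESC replicate 3). The filter at the 25th percentile removed Etv1 and Prox1 untested, and 80 members were over 2-fold. No member changed direction under any alternative run. Over all genes, 5851 were called, and the replicate block gave 5867. A 2-fold threshold left 3592 of them, 1615 higher in NPCs where 2638 had been. Centring each array on its median moved the median difference of all genes from -0.04 to 0.12 and the share of higher calls from 45.1% to 55.6%, with 50.6% after quantile normalization. The members' median difference moved with the scaling, to 1.65 with centring and 1.57 with quantile normalization, and that of the other rising genes to 1.62 and 1.55. Relative to the median of all genes, the members' median was 1.53, 1.53 and 1.55 as deposited, centred and quantile normalized. Leaving out each array gave 1.47 to 1.60 for the members, the highest without NPC replicate 3, and 1.45 to 1.51 for the other rising genes. At a 1.5-fold limit, 19 members were higher and 17 lower in NPC replicate 3, and the 6-letter core was in 22 members in place of 9. The order of members and other rising genes in the share over 2-fold turned without NPC replicate 3 and with centring. The planned counts over all bound promoter genes were not run for want of names. The size classes and the medians of the other rising genes under these alternatives were added after seeing the data. With 3 arrays a group, 1 line and no second set of NPCs, the values describe these cultures.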
